A study of Homo sapiens with 2 samples.

Results

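The HOXA cluster genes examined here were HOXA2, HOXA3, HOXA4, HOXA5, HOXA6, HOXA7, HOXA9, HOXA10 and HOXA11, 9 of the 20163 protein-coding genes annotated on the main chromosomes. They were chosen by name, and their data were the accessibility peaks within 3 kb of each transcription start site (TSS) and every peak between the outermost of them. By this rule 37 of the 114060 peaks of the DMSO library and 36 of the 161184 peaks of the MAK683 library belonged to the cluster. Accessible chromatin had been profiled with ATAC-seq, an assay whose Tn5 transposase inserts sequencing adapters into open DNA, in G401 cells, an established SMARCB1-deficient line of malignant rhabdoid tumor of the kidney. One library came from cells given DMSO, the solvent, and the other from cells given MAK683, an inhibitor of the EED subunit of PRC2, at a dose that the design text of the series gives as 3 µM and the sample labels leave out, and both treatments lasted 3 days. With 1 library per group there was no replicate check: no p-value was computed, and each difference described below is a difference between these libraries.

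HOX genes encode homeodomain transcription factors that give cells their position along the body axis. They lie in clusters, and their order along the chromosome follows the order in which they are expressed from head to tail, so HOXA2 is the most anterior of the genes described here and HOXA11 the most posterior. PRC2 methylates histone H3 at HOX clusters in cells where the genes are silent, and HOX clusters are a classic example of its targets, while in mice the group 11 genes, HOXA11 among them, are needed for the embryonic kidney to form.

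The libraries were of similar depth, with 16598348 filtered tags for DMSO and 18265284 for MAK683, where a tag is a read end that remained after duplicates were dropped. Peak height was the tag pileup at the summit per 1000000 filtered tags, abbreviated RPM, and the lowest peak held 6 tags in each library. In both libraries 0 peaks lay over SMARCB1, the gene whose loss marks this line, or within 100 kb on either side of it. Heights were lower in MAK683 across the genome: promoter height had a median of 1.93 RPM in DMSO and 1.31 RPM in MAK683 over protein-coding genes, and the log2 ratio of MAK683 over DMSO had a median of -0.42 over 16247 of them with a peak at the promoter in either library. Ratios of HOXA genes are read against that value. MAK683 nevertheless had more peaks, 161184 beside 114060 in DMSO. In bulk libraries a lower height can mean fewer cells with open DNA or less opening per cell. These cannot be told apart from each other or, with 1 library per group, from a technical difference between the libraries, and none was tested.

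Most HOXA promoters were open in DMSO and lower in MAK683. In DMSO all 9 genes had a peak in the window of 3 kb around the TSS, where 72.7% of protein-coding genes had one, and 8 had one in MAK683, where 78.7% did. HOXA5 was the 1 gene with a peak in DMSO alone, as 1.84% of protein-coding genes were, and 0 had one in MAK683 alone, as 7.87% did. That HOXA5 peak was weak, and at a −log10 q of at least 5 both libraries had 8 genes with a peak. Promoter height, the tallest of these peaks, had a median of 2.17 RPM over the HOXA genes in DMSO and 1.34 RPM in MAK683. It was lower in MAK683 for 9 of 9 genes and higher for 0, beside 78.4% lower and 21.5% higher among the 16247 genes above. The median log2 ratio of the HOXA genes was -0.62, with a 95% order-statistic interval of -0.92 to -0.42, and 7 of the 9 lay below the median of all promoters. HOXA4 alone was at least 2-fold lower, a size that 5.75% of promoters reached, and 0 were at least 2-fold higher, which 3.37% reached. Fewer than 9 separate peaks stand behind these values, because neighbouring genes share them: 8 in DMSO and 7 in MAK683.

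**Figure D1:**
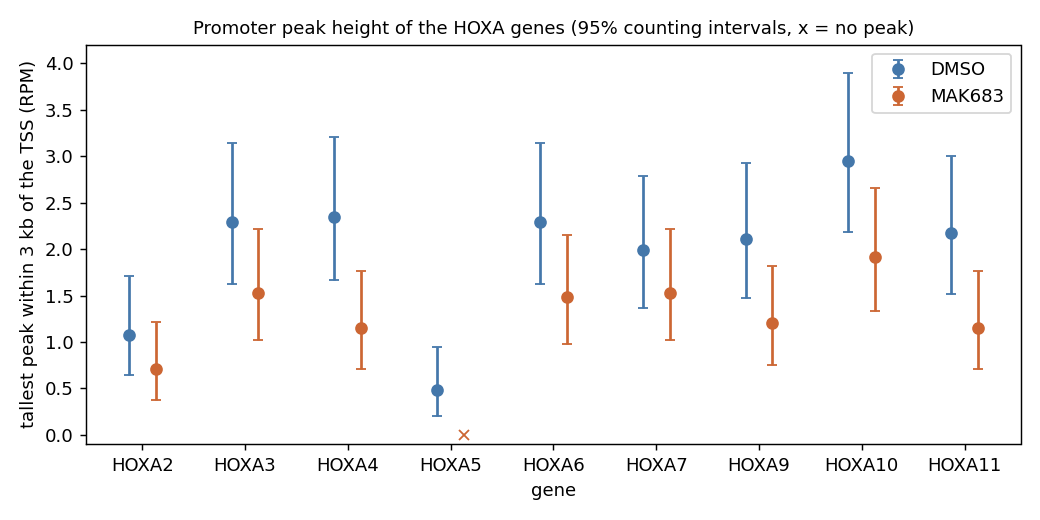
Promoter height of each HOXA gene in RPM, as the tallest peak within 3 kb of its TSS, with 95% exact counting intervals and 1 library per colour. Each MAK683 point lies below its DMSO point, the intervals of the libraries overlap for all 8 genes with a peak in both, and HOXA5 has no MAK683 peak (cross at 0).

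All 9 genes lie on the minus strand of chromosome 7, and positions are given in GRCh37. HOXA2, the most anterior, had a lower promoter height than HOXA3 in both libraries, although their counting intervals overlapped. HOXA2 (ENSG00000105996, chr7:27139973-27142305), which patterns the hindbrain and the second pharyngeal arch, had a promoter height of 18 tags or 1.08 RPM (95% exact interval 0.643 to 1.71) in DMSO and 13 tags or 0.712 RPM (0.379 to 1.22) in MAK683. Its tallest peak lay over its coding sequence, and the TSS itself was in no peak of either library. HOXA3 (ENSG00000105997, chr7:27145803-27192202), which is needed for the thymus and parathyroid, had 38 tags or 2.29 RPM (1.62 to 3.14) in DMSO and 28 tags or 1.53 RPM (1.02 to 2.22) in MAK683. The MAK683 value is that of a neighbour, since the tallest peak in the window was the one over the HOXA7 TSS, and the peak over the HOXA3 TSS itself held 27 tags or 1.48 RPM. The HOXA3 TSS here is that of the canonical transcript, at the upstream end of the gene's annotated extent, and heights at other HOXA3 starts are not given.

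By the tallest peak, HOXA4 had the lowest ratio of the 9 genes, but with the pileups of all peaks in the window summed its log2 ratio was -0.66 and that of HOXA2, -1.54, was the lowest. HOXA4 (ENSG00000197576, chr7:27168126-27170399), which takes part in vertebral patterning, stood at 39 tags or 2.35 RPM (1.67 to 3.21) in DMSO and at 21 tags or 1.15 RPM (0.712 to 1.76) in MAK683. The log2 ratio was -1.03 (95% counting interval -1.80 to -0.27), and 4.56% of promoters had a lower one. The DMSO summit lay 214 bp upstream of the TSS and the MAK683 summit 568 bp upstream.

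The start sites of HOXA5 and HOXA6 lay in no peak of either library. HOXA5 (ENSG00000106004, chr7:27180671-27183300), which is needed for lung development, had in DMSO only a low peak of 8 tags or 0.482 RPM (0.208 to 0.950), 2651 bp downstream of the TSS at the edge of the window, and none in MAK683. Set against the floor of 0.361 RPM used where a library had no peak, its log2 ratio was -0.42. In MAK683 the nearest peak lay 5331 bp from the HOXA5 TSS. HOXA6 (ENSG00000106006, chr7:27185015-27190222) took its values of 38 tags or 2.29 RPM and 27 tags or 1.48 RPM (0.974 to 2.15) from the peak over the HOXA3 TSS. The peak nearest to the HOXA6 TSS was 836 bp away with 14 tags in DMSO and 1238 bp away with 8 tags in MAK683. The longest stretch of the cluster without a peak in either library, 7.58 kb at chr7:27180650-27188228, held the start sites of both genes.

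HOXA7 had the highest ratio of the 9 genes. HOXA7 (ENSG00000122592, chr7:27193335-27197555) had 33 tags or 1.99 RPM (1.37 to 2.79) in DMSO and 28 tags or 1.53 RPM (1.02 to 2.22) in MAK683. Its log2 ratio of -0.38 (-1.10 to 0.35) lay above the median of all promoters by 0.05, with 55.0% of promoters lower.

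HOXA9 and HOXA10 lay under the longest peaks of the cluster in DMSO. HOXA9 (ENSG00000078399, chr7:27202057-27214799), a regulator of blood stem cells that is often raised in leukemia, had 35 tags or 2.11 RPM (1.47 to 2.93) in DMSO and 22 tags or 1.20 RPM (0.755 to 1.82) in MAK683. These are different peaks that do not overlap, with the DMSO summit 4377 bp downstream of the TSS and the MAK683 summit 4206 bp upstream, so their log2 ratio of -0.81 (-1.58 to -0.04) does not compare 1 site. The peak over the HOXA9 TSS itself, chr7:27202802-27210160 in DMSO, also held 35 tags, and that of MAK683, chr7:27203932-27206963, held 21, which gave a ratio of -0.88. HOXA10 (ENSG00000253293, chr7:27210224-27219880), which acts in the developing uterus, had the tallest promoter of the 9 genes in both libraries, 49 tags or 2.95 RPM (2.18 to 3.90) in DMSO and 35 tags or 1.92 RPM (1.33 to 2.66) in MAK683. HOXA11 (ENSG00000005073, chr7:27220776-27224851) had 36 tags or 2.17 RPM (1.52 to 3.00) in DMSO and 21 tags or 1.15 RPM (0.712 to 1.76) in MAK683, a log2 ratio of -0.92 (-1.69 to -0.14).

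Counting error was large beside these differences. HOXA4, HOXA9 and HOXA11 were the 3 of 8 genes whose ratio interval lay below 0, with different peaks behind the HOXA9 value, and among all promoters with a peak in both libraries 20.6% did so. For HOXA2, HOXA3, HOXA6, HOXA7 and HOXA10 a difference from 0 was not detectable at this depth. The ratio intervals of all 8 genes, those of HOXA4, HOXA9 and HOXA11 included, held -0.42, the median of all promoters. At this depth no single HOXA gene could thus be set apart from the drop over all promoters. The order of the genes by height in DMSO ran from HOXA10 through HOXA4, HOXA3, HOXA6, HOXA11, HOXA9 and HOXA7 to HOXA2 and HOXA5, and the intervals of the 7 tallest overlapped one another.

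**Figure D2:**
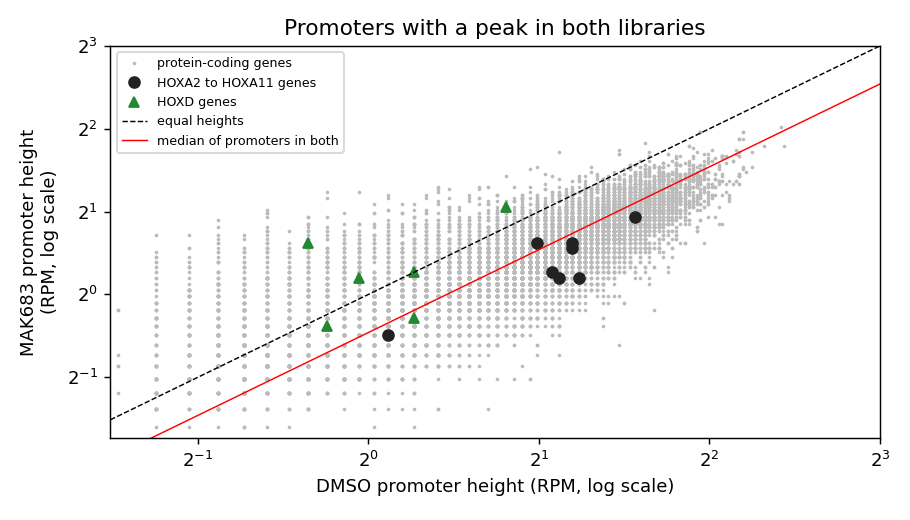
Promoter height in MAK683 against DMSO, in RPM on log axes, for protein-coding genes with a peak in both libraries (grey), 8 HOXA genes (black, with genes sharing a peak close together) and 6 HOXD genes (green). The HOXA genes lie below the line of equal heights and around or below the red line that marks the median ratio of these promoters, -0.46 on the log2 scale.

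The stretches just upstream of the start sites differ in sequence. Printed here are the 150 bases before the TSS of a promoter in no peak, HOXA5, and of 3 promoters inside a peak in both libraries, HOXA7, HOXA9 and HOXA10, on the minus strand from 5′ to 3′ with each CpG in capitals. They are read from GRCh37 at chr7:27183301-27183450, chr7:27196295-27196444, chr7:27205157-27205306 and chr7:27213940-27214089.
HOXA5 upstream: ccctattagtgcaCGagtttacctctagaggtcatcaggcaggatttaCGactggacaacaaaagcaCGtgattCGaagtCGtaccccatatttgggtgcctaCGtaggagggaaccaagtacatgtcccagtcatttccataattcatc
HOXA7 upstream: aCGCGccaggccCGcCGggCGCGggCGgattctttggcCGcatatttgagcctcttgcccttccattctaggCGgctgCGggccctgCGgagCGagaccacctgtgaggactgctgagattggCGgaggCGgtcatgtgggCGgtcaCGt
HOXA9 upstream: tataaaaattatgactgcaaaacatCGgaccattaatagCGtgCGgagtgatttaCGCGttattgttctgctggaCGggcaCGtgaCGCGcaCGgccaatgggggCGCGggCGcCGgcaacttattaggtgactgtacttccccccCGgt
HOXA10 upstream: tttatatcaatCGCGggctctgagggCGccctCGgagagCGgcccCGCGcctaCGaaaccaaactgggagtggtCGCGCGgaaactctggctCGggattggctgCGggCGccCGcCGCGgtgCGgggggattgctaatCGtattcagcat

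HOXA5 had 6 CpG in these 150 bases, HOXA7 had 16, HOXA9 had 15 and HOXA10 had 19. The genes not printed did not follow this contrast. Of those with a TSS in a peak of both libraries, HOXA11 had 4, HOXA3 had 6 and HOXA4 had 10. Of those with a TSS in no peak, HOXA2 had 3 and HOXA6 had 13. Over a longer window, the 300 bases before the TSS, HOXA5 held 27 CpG, HOXA10 held 29 and HOXA9 held 22, so HOXA5, with no peak there, stood between genes that had one. The genes with the most and the fewest, HOXA6 with 34 and HOXA2 with 8, both had a TSS in no peak, and HOXA3, with one, held 12. The 9 windows of 300 bases had a median of 27 CpG and a median GC content of 62.0%, beside 20 CpG and 62.0% over 20140 protein-coding genes.

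Between HOXA2 and HOXA11, at chr7:27139973-27224851, peaks covered most of the DNA in DMSO and less of it in MAK683. In DMSO 55.0 kb of the 84.9 kb was covered, which is 64.7%, and in MAK683 37.5 kb or 44.2%, a ratio of 0.683. Over the genome the covered length instead rose from 85.0 Mb to 96.5 Mb, a ratio of 1.13. Densely covered DNA of the genome, from which the HOX clusters were not removed, was also less covered in MAK683. Among 882 tiles of 100 kb with at least 20% covered in DMSO, the median ratio was 0.682, and 50.5% of them had a ratio below that of the cluster. Choosing tiles by their DMSO cover alone favours ratios below 1. Few tiles were as covered as the cluster, 2 of 30931 in DMSO and 10 in MAK683, although the cluster was cut to its genes and the tiles had fixed edges.

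The number of peaks was nearly the same, 37 and 36, while the peaks of MAK683 were shorter and lower, as they also were over the genome. The median length was 824 bp in DMSO and 606 bp in MAK683, beside 433 bp and 391 bp over all peaks. The longest peak of the cluster was 7625 bp and 5948 bp. Peaks of at least 2 kb numbered 9 in DMSO, where 7.11% of all peaks were that long, and 7 in MAK683, where 3.58% were. The median height of the cluster's peaks was 0.904 RPM in DMSO and 0.602 RPM in MAK683, beside 0.663 RPM and 0.547 RPM over all peaks.

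**Figure D3:**
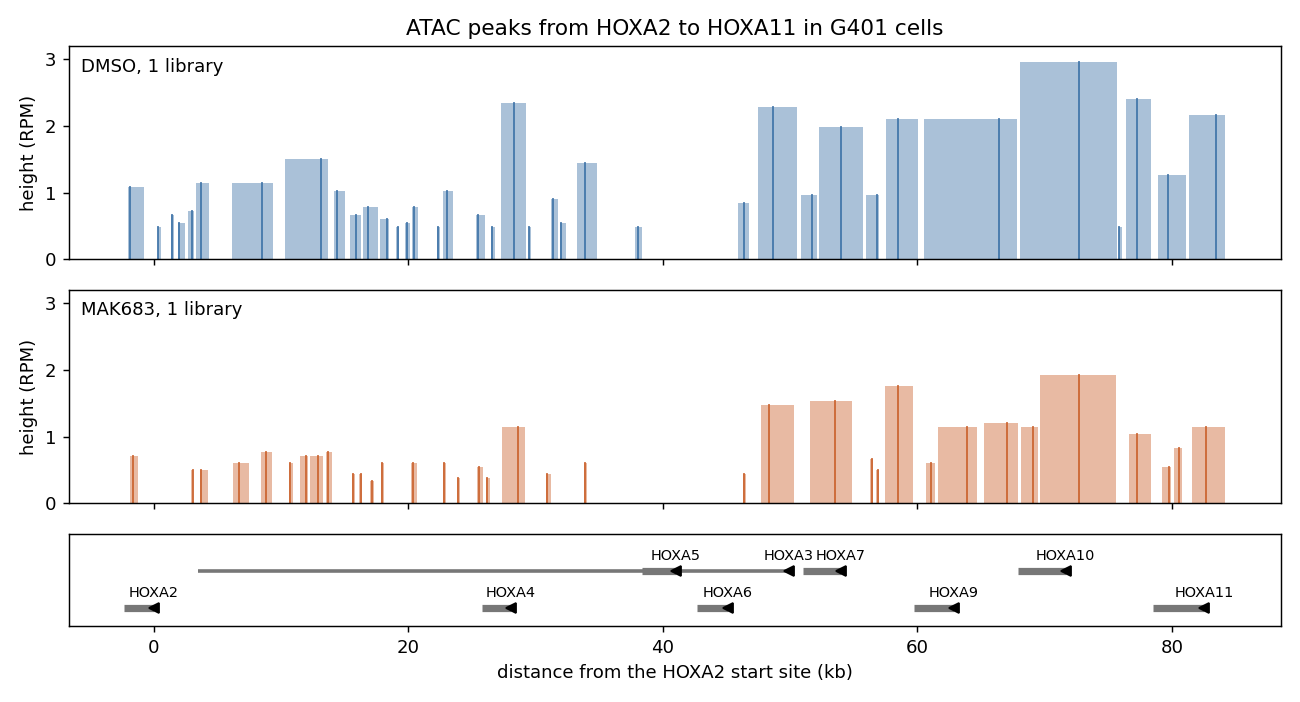
ATAC peaks from HOXA2 to HOXA11, with height in RPM against distance from the HOXA2 TSS in kb. Boxes span each peak, thin lines mark summits, and in the lower panel arrowheads mark start sites and bars the gene from its TSS to its end. Peaks are broadest and tallest at the right, over HOXA9 and HOXA10, and are absent around the HOXA5 start site in both libraries.

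When overlapping peaks of the libraries were merged, the cluster held 38 regions, of which 24 were shared, 12 were found in DMSO only and 2 in MAK683 only. Over the genome 29.1% of merged regions were shared, 25.1% were found in DMSO only and 45.9% in MAK683 only. The DMSO-only regions of the cluster were low, with 8 to 17 tags, and both MAK683-only regions had 7.

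All 24 shared regions were lower in MAK683, one of them by less than the rounding of the values, and 76.2% of the shared regions of the genome were lower. Their median log2 ratio was -0.63 (95% order-statistic interval -0.97 to -0.55), and that of the genome was -0.33. For comparison, shared regions of the genome whose DMSO height lay between the quartiles of the cluster, 0.828 to 2.11 RPM, had a median log2 ratio of -0.49, and 88.4% were lower. In the cluster 6 of 24 were at least 2-fold lower, beside 5.54% of shared regions, 0 were at least 2-fold higher, beside 0.873%, and 7 had a counting interval below 0, beside 8.27%. These genome shares cover regions of all heights and were not computed for regions of matched height. The lowest peaks held 6 tags, so a region with few tags in DMSO could not be 2-fold lower and still be shared. The contrast in these shares is therefore not one between regions of like height. In 7 shared regions a single DMSO peak met 2 or more MAK683 peaks, and the reverse held for 1.

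The sections of the cluster differed in how much cover was left. The anterior section, from HOXA2 up to the 3′ end of HOXA4, went from 58.1% covered in DMSO to 29.0% in MAK683, a ratio of 0.499. The central section, HOXA4 through HOXA7, went from 47.5% to 30.2%, a ratio of 0.635. The posterior section, past HOXA7 through HOXA11, went from 90.3% to 75.1%, a ratio of 0.832. The posterior section also had the tallest peaks, with a median of 2.11 RPM in DMSO and 1.09 RPM in MAK683, beside 0.693 RPM and 0.602 RPM in the anterior section.

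The 5 tallest regions by the higher of the libraries, which was DMSO for each, are given in that order. The tallest, chr7:27210373-27217997, had its summits 10 bp apart in the libraries, inside an intron of a longer HOXA10 transcript, with 49 tags in DMSO and 35 in MAK683. The second, chr7:27218692-27220656, peaked over the UTR of that HOXA10 transcript with 40 tags or 2.41 RPM in DMSO and 19 tags or 1.04 RPM in MAK683, a log2 ratio of -1.21 (-2.00 to -0.42), and in MAK683 it was not among the 5 tallest. The other 3 were those over the start sites of HOXA4, HOXA3 and HOXA11. Both windows printed here are 150 bases around a DMSO summit on the plus strand, at chr7:27214908-27215057 for the tallest region and chr7:27170515-27170664 for the HOXA4 promoter, with each CpG in capitals.
tallest region: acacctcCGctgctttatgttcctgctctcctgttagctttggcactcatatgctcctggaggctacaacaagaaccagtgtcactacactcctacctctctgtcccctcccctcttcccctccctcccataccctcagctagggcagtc
HOXA4 promoter: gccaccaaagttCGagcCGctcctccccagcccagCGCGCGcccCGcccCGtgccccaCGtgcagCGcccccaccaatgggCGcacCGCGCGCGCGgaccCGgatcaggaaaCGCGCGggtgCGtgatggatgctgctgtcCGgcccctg

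The tallest summit had 1 CpG and the HOXA4 summit 21, so heights of 2.95 RPM and 2.35 RPM in DMSO were found on a CpG-poor and a CpG-rich stretch. The 300-base windows around all 37 DMSO summits of the cluster had a median of 5 CpG, beside 4 over all DMSO peaks.

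The shared regions with the highest ratios were low or lay between genes. At chr7:27160042-27160795, in an intron of HOXA3, the height was 0.602 RPM in each library, from 10 and 11 tags. At chr7:27199765-27202321, between HOXA7 and HOXA9, it was 35 tags or 2.11 RPM in DMSO and 32 tags or 1.75 RPM in MAK683, a log2 ratio of -0.27 (-0.96 to 0.42), and this was the only one of the 3 with a tall peak. At chr7:27167641-27168286, at the end of HOXA4, it was 11 and 10 tags, with a log2 ratio of -0.28.

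The 3 shared regions with the lowest ratios lay in the anterior and central sections, but the next, over the HOXA10 UTR in the posterior section, was nearly as low at -1.21 (-2.00 to -0.42). At chr7:27175517-27177144, an intron of the long HOXA3 transcript upstream of HOXA4, the height went from 24 tags or 1.45 RPM in DMSO to 11 tags or 0.602 RPM in MAK683, a log2 ratio of -1.26 (-2.29 to -0.23). At chr7:27158761-27159912, over a UTR of HOXA3, 13 tags in DMSO stood beside 6 in MAK683, with a ratio of -1.25 whose interval of -2.65 to 0.14 spanned 0. At chr7:27145612-27146616, over the UTR at the other end of HOXA3, 19 tags stood beside 9, with a ratio of -1.22 (-2.36 to -0.07). Of the regions found in one library, the tallest in DMSO were at chr7:27156439-27157286 with 17 tags and chr7:27143615-27143901 with 11, and those in MAK683 were at chr7:27166102-27166353 and chr7:27168425-27168746.

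CTCF divides HOX clusters into domains, so matches to the core of its motif (CC, any 3 bases, AG, any 2 bases, GGC) were counted on both strands. The cluster held 26, of which 22 lay in merged regions, which made up 66.7% of its length. Only 2 of the 26 lay within 30 bp of the summits of both libraries. They are printed on the minus strand with the match in capitals, the first between HOXA7 and HOXA9 at chr7:27200748-27200777 and the second in the HOXA10 UTR at chr7:27219516-27219545.
between HOXA7 and HOXA9: aaacggcggCCAGCAGATGGCagtgtggct
HOXA10 UTR: gcgcagccgCCACGAGATGGCgcacttccg

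The regions around these matches had log2 ratios of -0.27 for the first, from 35 and 32 tags, and -1.21 for the second, from 40 and 19 tags. A match is a description of the letters and does not show that CTCF was bound. The 300 bases around the summit held a match in 8.11% of the cluster's DMSO peaks and 16.7% of its MAK683 peaks, beside 12.2% and 10.0% of all peaks. Of the 9 upstream windows 1 held a match, that of HOXA11, beside 12.6% of those of protein-coding genes. For the sites of retinoic acid receptors, which switch on anterior HOX genes, the repeat known as DR5, 2 copies of GNTCA after any base with 5 bases between the copies, was found 2 times, both in regions inside HOXA3 introns. None of the 37 DMSO summit windows of the cluster and none of the 9 upstream windows held it, beside 0.908% of all DMSO summit windows and 0.556% of the upstream windows of protein-coding genes. The same repeat with 2 bases between the copies, DR2, was found 4 times, 3 of them in regions, and in none of those windows, beside 2.47% and 0.859%. In MAK683 1 of 36 summit windows held DR5 and 1 held DR2, which is 2.78% each, beside 0.898% and 1.57% of all. The letters TGATNNAT, a pattern of HOX proteins with their PBX partners, were found 37 times, 16 of them in regions. They occurred in 13.5% of the cluster's DMSO summit windows, beside 8.13% of all, and in the upstream windows of HOXA2 and HOXA4, beside 5.59% of those of protein-coding genes.

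The noncoding genes in and next to the cluster, which mostly took the same peaks as HOXA genes, were lower in MAK683 in 7 of 7 cases, with a median log2 ratio of -0.92 (-1.29 to -0.35). HOXA10-AS, antisense to HOXA10, went from 49 tags to 22, a log2 ratio of -1.29 (-2.02 to -0.57), but its DMSO peak is the tallest region and its MAK683 peak another one, so the ratio sets different peaks side by side. HOXA-AS3 had the values of HOXA4, since it took the same peaks. The hairpin of the microRNA miR-196b, which targets HOX messages, lay at chr7:27209099-27209183 inside the annotated extent of HOXA9, within peaks of 35 tags in DMSO and 22 in MAK683. Its mature 5p sequence in RefSeq, with the seed of bases 2 to 8 in capitals, is given because it is the other product of this stretch, and the microRNA itself was not measured.
hsa-miR-196b-5p: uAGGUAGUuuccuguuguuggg

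Genes that work with or control HOXA genes were taken from lists of known partners and regulators. The partners of HOX proteins, the PBX, MEIS and PKNOX genes, had a promoter peak in both libraries in 9 of 9 cases, with 1 higher, 8 lower and 0 changed 2-fold, and a median log2 ratio of -0.39. MEIS1, a partner of HOXA9, was the one that was higher, at 19 tags or 1.14 RPM (0.689 to 1.79) in DMSO and 39 tags or 2.14 RPM (1.52 to 2.92) in MAK683, a log2 ratio of 0.90 (0.11 to 1.69). The DMSO summit lay 175 bp upstream of the MEIS1 TSS and the MAK683 summit 1528 bp upstream, outside the DMSO peak. Although the MEIS1 peaks overlap, their ratio thus does not compare 1 site. Of 21 upstream regulators 20 had a peak in either library, with 5 higher, 15 lower and a median of -0.51, and 2 were at least 2-fold higher and 2 at least 2-fold lower. Beside both lists, 78.4% of all promoters with a peak were lower and 21.5% higher. At least 2-fold lower were 5.75% of them, and at least 2-fold higher 3.37%. RARB, a retinoic acid receptor, had no peak in DMSO and 26 tags or 1.42 RPM in MAK683, and RXRG, a partner of such receptors, had none and 17 tags. Both count as 2-fold higher only against the floor of 0.361 RPM, and 7.87% of protein-coding genes had a promoter peak in MAK683 alone. CDX1, which activates HOX genes in the posterior embryo, went from 30 tags to 16, a log2 ratio of -1.04 (-1.92 to -0.17), and ASH1L, a histone methyltransferase, from 37 tags to 20, a ratio of -1.03 (-1.81 to -0.24).

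The other HOX clusters are given beside the HOXA genes for scale and were not tested against them. The HOXB genes had a median log2 ratio of -0.78 and the HOXC genes of -0.65, while the 7 HOXD genes with a peak had -0.00. Peaks covered 22.2% of HOXB in DMSO and 14.8% in MAK683, 70.1% and 41.8% of HOXC, and 17.7% and 21.9% of HOXD. The DNA next to the cluster was less covered than the cluster, at 8.11% and 5.77% beyond HOXA2 and at 13.3% and 18.6% beyond HOXA11. HOXA13, beyond the posterior end, took 29 tags in DMSO and 25 in MAK683.

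**Figure D4:**
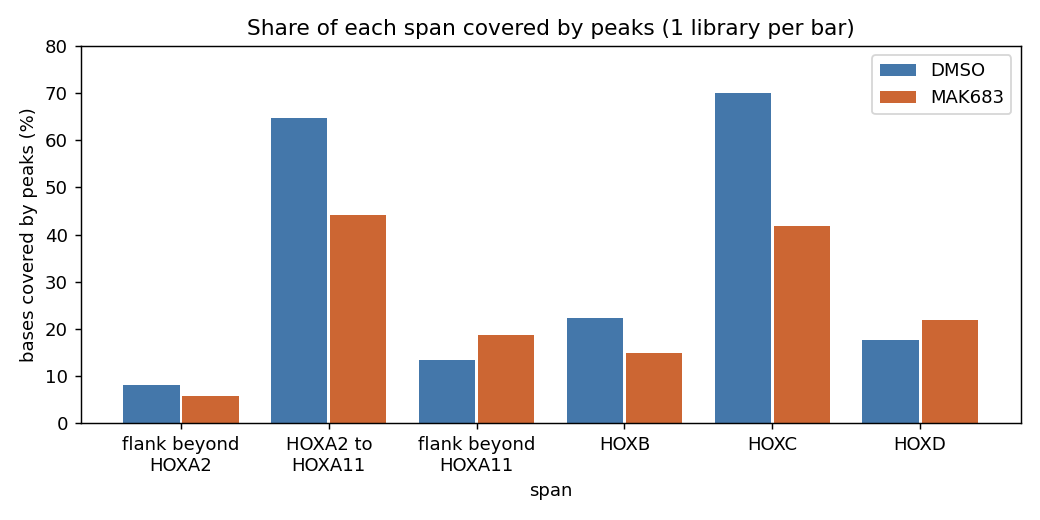
Share of bases covered by peaks, in percent, for the HOXA2 to HOXA11 span, the equally long flanks on both sides of it and the other HOX clusters, with 1 library per bar. MAK683 is lower for HOXA, HOXB and HOXC, and higher for HOXD and for the flank beyond HOXA11.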

How the data were processed

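ATAC-seq peaks of 2 G401 libraries, 1 per treatment, were analysed. The study's methods describe adapter trimming by Trim-galore, then alignment by Bowtie2 against hg19. The authors ran MACS separately for each library (version 2.1.1.20160309 per the file headers), whereas the submitters' processing notes name MACS2 2.1.0 and 2.2.7.1. A shift of -100 bp and an extension to 200 bp put each tag's centre at the Tn5 cut. No control or local background was used, 1 tag was kept per position, reads counted as single ends, and the q cutoff was 0.05. A single background level leaves regional differences in copy number or coverage uncorrected.

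The deposited pileup signal is a tag count at the summit, unscaled. The deposited fold enrichment is a ratio to the library's background, and the −log10 q-value and −log10 p-value, also deposited, depend on depth. The pileup was divided by filtered tags (16598348 and 18265284). Fold enrichment and q were used only in alternatives.

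Genes came from GENCODE release 44 lifted to GRCh37, with the canonical transcript's TSS. A library without a promoter peak was set to 0.361 RPM, the larger of the lowest peak heights. Overlap of 1 bp merged peaks into regions, each given its tallest peak per library. Heights have 95% exact Clopper-Pearson intervals, single ratios Poisson intervals by a normal approximation, and medians order-statistic intervals, which reflect the spread among genes or regions, some of which share peaks. The others cover counting error only, since PCR copies could not be recognised by molecular identifiers and reads need not be separate molecules. Scripts were tested on simulated data. The members, gene lists and naming rules were chosen with earlier results of these data known. Regions named were the 5 tallest, the 3 highest and 3 lowest ratios, and the 2 tallest found in each library alone; listed genes were named at 2-fold, and MEIS1, miR-196b and HOXA13 were added after their values were seen. Python 3.11.15, pandas 2.3.3, numpy 2.4.6 and scipy 1.17.1 were used.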

Additional observations from a re-analysis of the deposited data

How the results depend on the processing

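No paired analysis was possible because each group had 1 library. The median log2 ratio of the HOXA promoters stayed below 0 under every alternative run, from -0.90 to -0.29. The median of all promoters, -0.42, also lay below 0, so the sign alone does not set the HOXA genes apart. After the median of all shared regions was subtracted, the HOXA median was -0.29, and its interval of -0.92 to -0.42 shifts by the same amount. The ratio of covered length stayed between 0.552 and 0.701, and the median ratio of shared regions between -0.72 and -0.49, the last without depth scaling. Of 68 single-gene ratios under the alternatives 67 were below 0, and the exception was HOXA10 at 0.05 with the pileups of all its peaks summed, where its MAK683 window held more peaks. Many of the 68 came from the same peaks, unchanged or with all genes shifted by nearly the same amount, so they are not separate checks. With a window of 1 kb, 8 genes had a promoter peak in DMSO and 6 in MAK683. At −log10 q of at least 10 the cluster held 19 DMSO and 10 MAK683 peaks, with 8 shared regions. MAK683-only regions numbered 0 at −log10 q of at least 5, at 10 and at 0.5 RPM, and 1 when regions within 100 bp were merged. Where at least 50% of each peak had to be overlapped, 10 peaks of each library matched one of the other. Depth limits these values: peaks of the cluster held 6 to 49 tags at the summit, and differences between cultures could not be measured with 1 library per group.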

Other observations

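Beyond HOXA11 the picture differed from that within the cluster. EVX1, a homeobox gene at chr7:27282319-27290112, was examined with 10 kb added on both sides, a window chosen after its values were seen. It held 10 regions, of which 5 were found in MAK683 only, with 8 to 19 tags, 2 in DMSO only and 3 in both. Over the genome 45.9% of merged regions were found in MAK683 only, 25.1% in DMSO only and 29.1% in both. The split of this window was thus near that of all regions, and it differed from that of the cluster. The covered length was 2.98 kb in DMSO and 8.39 kb in MAK683. The tallest peak within 3 kb of the EVX1 start site held 9 tags in DMSO and 16 in MAK683, a log2 ratio of 0.69 (counting interval -0.49 to 1.87).

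In the HOXD cluster, HOXD13 had 13 tags or 0.783 RPM in DMSO and 28 tags or 1.53 RPM in MAK683, a log2 ratio of 0.97 (0.02 to 1.92), and was named after its values were seen. Outside the HOX clusters, the promoters most like the HOXA median in height and ratio were those of ABHD6, ADIPOR2 and ARIH2, but these were among 30 genes tied at 35 tags in DMSO and 25 in MAK683, so the tags did not single out any gene.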
